A study of Mus musculus with 13 samples.

Results

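The 7 genes described here write, copy or remove 5-methylcytosine in the mouse genome. They were chosen by name among the 43629 genes of the table, and all 7 were found and passed the filter on low values. There were 4 writers, the methyltransferase genes Dnmt1, Dnmt3a and Dnmt3b together with Uhrf1, and 3 erasers, Tet1, Tet2 and Tet3. RNA was sequenced from 13 samples of Mus musculus, as polyA libraries prepared from single-cell suspensions. The groups were 5 thymic lymphomas of Atm-/- mice (129S6/SvEv), 5 thymic lymphomas of Rag2c/c p53-/- mice (mixed background C57BL/6 and 129S6/SvEv) and 3 thymuses of wild type (WT) C57BL/6 mice, whose libraries were re-used. The titles, genotype and tissue of the 3 WT samples say wild type thymus, while their source name reads thymic lymphoma, and they were grouped as thymus. Atm-/- mice lack the kinase that responds to DNA double-strand breaks. In Rag2c/c mice RAG2 is truncated and lacks its C terminus, and the Rag2c/c p53-/- mice also lack p53. Neither lymphoma group shares a deleted gene with the other or with WT, and the labels give no age and no tumor stage. Each group has its own strain, and only the thymus libraries were re-used, so strain, tumor state and library origin cannot be told apart from genotype. Nothing in the labels ties a sample to an animal, so the p-values below measure the spread between these samples.

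In mammalian DNA most methylation sits on cytosines of CpG pairs. After replication the new strand is unmethylated, and UHRF1 binds such hemimethylated sites and brings DNMT1, which copies the mark. DNMT3A and DNMT3B methylate sites that carried no mark before. TET proteins oxidize 5-methylcytosine with iron and 2-oxoglutarate, and the oxidized base is either diluted as cells divide or cut out by the glycosylase TDG and replaced. In T cells, DNMT3A and TET2 are known as tumor suppressors, and TET2 and TET3 act together during thymocyte development.

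Of the 7 genes, only Tet genes passed both thresholds given below against thymus. These were Tet2 and Tet3 in both lymphoma groups and Tet1 in Rag2c/c p53-/- lymphomas. The 76 bases just before the RefSeq start of each Tet gene are shown, with every CpG in capitals (GRCm38.p6, minus strand of each chromosome, 5′ to 3′).
Tet1, chr10:62887325-62887400: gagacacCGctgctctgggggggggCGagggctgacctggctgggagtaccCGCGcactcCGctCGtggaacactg
Tet2, chr3:133544391-133544466: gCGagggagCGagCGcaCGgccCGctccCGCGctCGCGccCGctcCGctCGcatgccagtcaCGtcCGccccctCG
Tet3, chr6:83441679-83441754: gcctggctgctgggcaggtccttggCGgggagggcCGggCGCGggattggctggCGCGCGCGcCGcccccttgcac
CpG pairs are the letters that DNMT and TET enzymes act on. The stretches hold 6, 15 and 9 CpG for Tet1, Tet2 and Tet3. None of these bases lies in an annotated exon.

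Over the whole promoter window of 300 bases (250 before the start and 50 after it), Tet2 held 57 CpG and 99.8% of the 32851 RefSeq promoters held fewer. Tet3 held 22 CpG, more than 76.9% of promoters, and Tet1 held 17, more than 68.6%. Of the 250 bases before the start, 174 for Tet3 and 100 for Tet1 lie in an annotated exon, and 0 for Tet2. The starts used for Tet1 (chr10:62887324) and Tet3 (chr6:83441678) lie inside the annotated genes, which reach chr10:62899118 and chr6:83459084 on the minus strand. Their windows are thus within the annotated genes and not at their 5′ ends, and GENCODE also extends Tet2 past its window, to chr3:133545139. The median promoter held 7 CpG. The 12 windows of the 7 genes spanned 2 CpG, at a Dnmt1 start at chr9:20959888, to the 57 of Tet2. Dnmt3a has a pair of neighbouring starts with 46 and 47 CpG and a further one with 18, and Dnmt3b has 1 window with 30. E2F-type letters were searched on both strands because Dnmt1 and Uhrf1 are genes of dividing cells. Of TTTGGCGC, TTTCCCGC, TTTGGCGG and TTTCCCGG, only TTTGGCGC occurred, in 1 window of Dnmt1, and 3.32% of all promoters held any of the 4. Among the 12 windows, the Notch-type letters TGGGAA were in 1 window each of Dnmt1, Dnmt3a, Tet1 and Tet3. They were in 25.6% of all promoter windows. These matches only describe the letters, since methylation itself was not measured.

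Values are normalized counts, that is reads per gene divided by the authors' size factor for the library and rounded. Libraries held an estimated 6.37 to 38.8 M counted reads, and the shallowest of each group was its replicate 2 (9.23 M for Atm-/-, 6.37 M for Rag2c/c p53-/- and 6.66 M for WT). A gene was called changed at an adjusted p under 0.05 (limma, Benjamini-Hochberg over 15872 genes) and at least 2-fold. The labelled tissue was checked against its markers. The T cell list (8 genes) was expressed in every library, with 1 of 8, Themis, called lower in each lymphoma group. Of all tested genes 17% (Atm-/-) and 13.9% (Rag2c/c p53-/-) were called lower. The list's summed values were 76328 to 108545 in WT, 56302 to 101522 in Atm-/- and 57448 to 105785 in Rag2c/c p53-/- lymphomas. Atm itself was at 1559 to 2274 in WT, 208 to 732 in Atm-/- lymphomas and 439 to 1315 in Rag2c/c p53-/- lymphomas, and was called lower in both (adjusted p = 0.0017 and 0.0441). Rag2 was at 4199 to 5409 in WT, 46 to 1025 in Atm-/- lymphomas and 260 to 790 in Rag2c/c p53-/- lymphomas, and was also called lower in both. Trp53 was at 4387 to 6341 in WT, 6853 to 11318 in Atm-/- lymphomas and 2018 to 5461 in Rag2c/c p53-/- lymphomas. It was called in neither group against thymus, but was called higher in Atm-/- than in Rag2c/c p53-/- lymphomas. Counts per gene include exons outside a disrupted stretch, so they do not check the knockouts.

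Each of the 3 erasers was lower in every lymphoma than in every WT thymus, and no writer was called in either lymphoma group. Tet2 and Tet3 fell in both lymphoma groups, and Tet1 fell in Rag2c/c p53-/- lymphomas. Uhrf1 was higher in every lymphoma than in every thymus, by less than 2-fold. Groups without overlap were frequent, at 51.3% (Atm-/-) and 43.9% (Rag2c/c p53-/-) of all tested genes against thymus. Of the 7 genes, 0 were called higher and 2 lower in Atm-/- lymphomas, where 12.6% of all tested genes were called higher and 17% lower. In Rag2c/c p53-/- lymphomas 0 were called higher and 3 lower, against 9.77% and 13.9% of all tested genes. The WT libraries are shared by these comparisons. In bulk RNA, fewer cells of a type and less RNA per cell cannot be told apart.

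**Figure D1:**
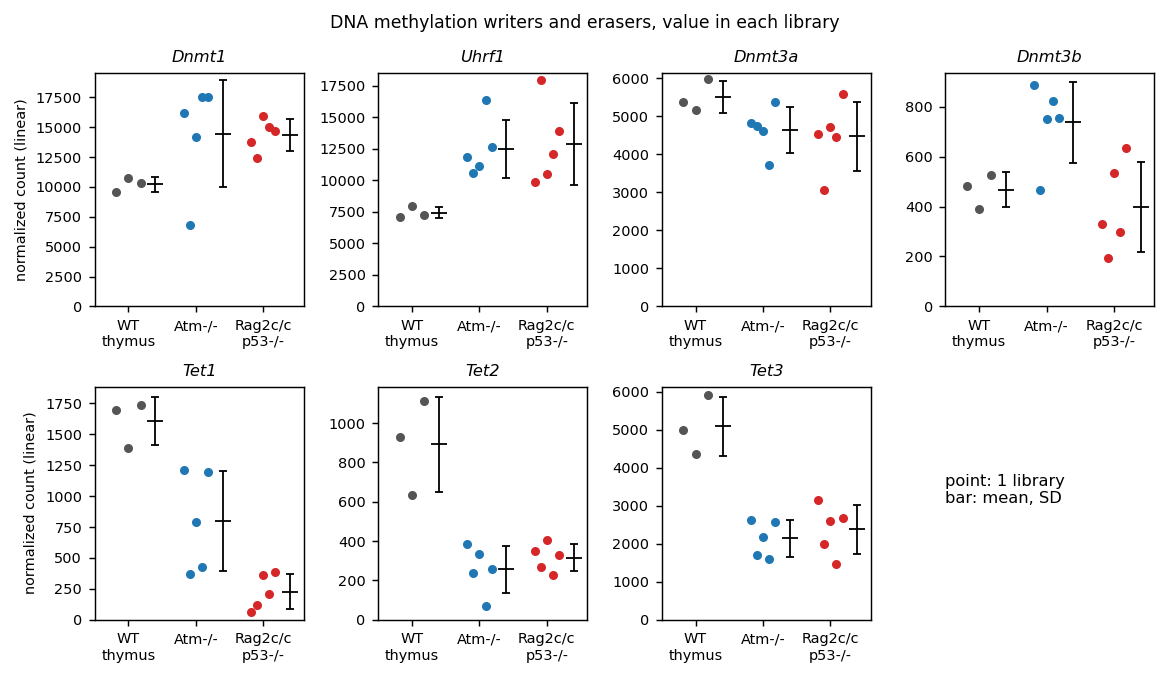
Normalized count (linear axis from 0) of each of the 7 genes in each of the 13 libraries, with 1 point per library and the mean and SD of the group as a bar beside it. For Tet2 and Tet3 every lymphoma lies under every WT thymus, and Tet1 in Rag2c/c p53-/- lymphomas spans 60 to 383 against 1387 to 1740 in WT.

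Tet2 (chr3:133463679-133544390, GRCm38, minus strand) encodes a TET enzyme without a CXXC DNA-binding domain, and its loss is frequent in blood cancers. It was at 928, 633 and 1112 in WT thymus, at 383, 235, 333, 71 and 256 in Atm-/- lymphomas and at 347, 270, 404, 225 and 330 in Rag2c/c p53-/- lymphomas. All 10 lymphomas were under the lowest thymus, and Atm-/- replicate 4 was the lowest of all. The mean was 891 ± 242 (SD, n = 3) in WT, 256 ± 119 (n = 5) in Atm-/- and 315 ± 69.5 (n = 5) in Rag2c/c p53-/- lymphomas. The log2 fold change was -1.96 ± 0.44 (SE) in Atm-/- (limma, adjusted p = 0.00321) and -1.49 ± 0.44 in Rag2c/c p53-/- lymphomas (adjusted p = 0.0182). The second of these calls was lost when WT replicate 1 (adjusted p = 0.0671) or WT replicate 3 (adjusted p = 0.0884) was left out, and the log2 fold changes then were -1.44 and -1.31. Between the lymphoma groups Tet2 differed by -0.47 (Atm-/- minus Rag2c/c p53-/-, 95% interval -1.29 to 0.35), an interval that holds differences in either direction. The lowest value rests on an estimated 38 reads.

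Tet3 (chr6:83362373-83459084, minus strand) encodes the TET enzyme whose RNA was the most abundant of the family per exon length in all 3 groups. It was at 5004, 4356 and 5920 in WT, at 2635, 1717, 2170, 1602 and 2581 in Atm-/- and at 3140, 2003, 2592, 1471 and 2686 in Rag2c/c p53-/- lymphomas. The highest lymphoma value stayed under the lowest thymus value. The log2 fold change was -1.27 ± 0.24 in Atm-/- (adjusted p = 0.0011) and -1.14 ± 0.24 in Rag2c/c p53-/- lymphomas (adjusted p = 0.00292). Without Rag2c/c p53-/- replicate 4, the lowest of its group, the latter was -0.97 and just short of 2-fold. Tet3 did not pass the test between the lymphoma groups, with a difference of -0.13 (95% interval -0.59 to 0.32).

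Tet1 (chr10:62804570-62899118, minus strand) encodes the founding TET enzyme, which carries a CXXC domain that binds unmethylated CpG. Its 3 WT values were 1696, 1387 and 1740. The Atm-/- lymphomas were at 1209, 370, 789, 427 and 1198, and the Rag2c/c p53-/- lymphomas at 60, 122, 361, 210 and 383. Replicates 1 and 5 of Atm-/- lay nearest to thymus, and replicates 2 and 4 lay within or near the range of the Rag2c/c p53-/- group. The mean ± SD was 1608 ± 192 in thymus, 799 ± 403 in the Atm-/- group and 227 ± 143 in the Rag2c/c p53-/- group. The change in Rag2c/c p53-/- lymphomas was -3.11 ± 0.56 on the log2 scale (adjusted p = 0.00101), an 8.6-fold lower level and the largest change of the 7 genes in the 3 comparisons, and 3.8% of all tested genes had a lower fold change. The change in Atm-/- lymphomas was -1.17 ± 0.56 and did not pass the test (adjusted p = 0.105), although the groups did not overlap. It passed there when the fit held only the 2 groups compared (adjusted p = 0.0398) or without Rag2c/c p53-/- replicate 1 (adjusted p = 0.0498), which carries the lowest Tet1 value.

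Between the lymphoma groups Tet1 was called, 1.94 ± 0.49 higher on the log2 scale in Atm-/- than in Rag2c/c p53-/- lymphomas (95% interval 0.89 to 2.99, adjusted p = 0.0212). It was the 1 gene of 7 called higher in Atm-/- lymphomas, and 0 were called lower, where 3.51% and 4.33% of all tested genes were. The ranges met, since Atm-/- replicate 2 at 370 lay under Rag2c/c p53-/- replicate 5 at 383. The call was lost without Atm-/- replicate 1 (1.75, adjusted p = 0.0562), without Atm-/- replicate 5 (1.75, adjusted p = 0.0508) and in a fit of these 2 groups alone (1.94, adjusted p = 0.0533).

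Among the writers, Uhrf1 (chr17:56303321-56323486, plus strand) encodes the reader of hemimethylated CpG. It was at 7079, 7930 and 7270 in WT, at 11847, 10546, 11148, 16363 and 12598 in Atm-/- and at 9818, 17930, 10503, 12058 and 13862 in Rag2c/c p53-/- lymphomas. All lymphomas were above all thymuses, with the highest values in Atm-/- replicate 4 and Rag2c/c p53-/- replicate 2. The log2 fold changes were 0.74 ± 0.20 (adjusted p = 0.00831) and 0.76 ± 0.20 (adjusted p = 0.00864), which passed the test but not the 2-fold threshold. The lymphoma groups differed by -0.02 (95% interval -0.39 to 0.34), which excludes a 2-fold difference at that level.

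Dnmt1 (chr9:20907206-20959888, minus strand) encodes the methyltransferase that copies the mark after replication. It was at 9537, 10775 and 10312 in WT, at 16205, 6835, 14169, 17527 and 17508 in Atm-/- and at 13740, 12459, 15951, 14985 and 14692 in Rag2c/c p53-/- lymphomas. Of the 10 lymphomas 9 were above every thymus, and Atm-/- replicate 2 was below every thymus. The log2 fold changes of 0.43 ± 0.25 in Atm-/- (adjusted p = 0.185) and 0.49 ± 0.25 in Rag2c/c p53-/- lymphomas (adjusted p = 0.144) did not pass the test. Both results rest on Atm-/- replicate 2. Without it the changes were 0.68 (adjusted p = 0.00117) and 0.49 (adjusted p = 0.00722), which passed the test and stayed under 2-fold. The change in Rag2c/c p53-/- lymphomas also passed when only that group and thymus were fitted (adjusted p = 0.0202). The spread among the Atm-/- lymphomas was 30.9% of their mean, and 9.67% without replicate 2, against 9.23% in Rag2c/c p53-/- lymphomas and 6.13% in thymus.

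Dnmt3a (chr12:3806007-3914443, plus strand) encodes the main de novo methyltransferase of blood cells. It was at 5370, 5168 and 5984 in WT, at 4809, 4736, 4602, 3711 and 5383 in Atm-/- and at 4537, 3060, 4708, 4455 and 5574 in Rag2c/c p53-/- lymphomas. In each lymphoma group 4 of 5 values lay under the lowest thymus and replicate 5 lay within the thymus range. The log2 fold changes were -0.25 (95% interval -0.64 to 0.13) and -0.33 (-0.71 to 0.06), and neither passed the test (adjusted p = 0.262 and 0.166). Dnmt3a was the 1 gene of 7 whose intervals exclude a 2-fold change in all 3 comparisons, the one between lymphomas included (0.07, -0.26 to 0.41).

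Dnmt3b (chr2:153649450-153687730, plus strand) encodes the second de novo methyltransferase, which is mostly known from early embryos and is low in resting blood cells. It was at 484, 390 and 527 in WT, at 889, 466, 752, 824 and 755 in Atm-/- and at 330, 193, 534, 300 and 635 in Rag2c/c p53-/- lymphomas. In Atm-/- lymphomas 4 of 5 were above every thymus, and in Rag2c/c p53-/- lymphomas 3 of 5 were below every thymus and replicates 3 and 5 above. Neither lymphoma group differed from thymus by the test (0.64 ± 0.34, adjusted p = 0.142, and -0.34 ± 0.34, adjusted p = 0.448). Set against each other, Dnmt3b was 0.98 ± 0.29 higher on the log2 scale in Atm-/- lymphomas (95% interval 0.35 to 1.61, adjusted p = 0.0461), which passed the test narrowly and fell just short of 2-fold. The adjusted p was 0.0602 to 0.105 in 10 of the 13 fits that left out 1 library, all but those without Atm-/- replicate 2 or Rag2c/c p53-/- replicate 3 or 5, and was above 0.05 in 4 of 10 other alternatives. Dnmt3b reached 2-fold without Atm-/- replicate 2 (1.14) and without Rag2c/c p53-/- replicate 3 (1.12) or 5 (1.18), the libraries that lay nearest to the other group.

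**Figure D2:**
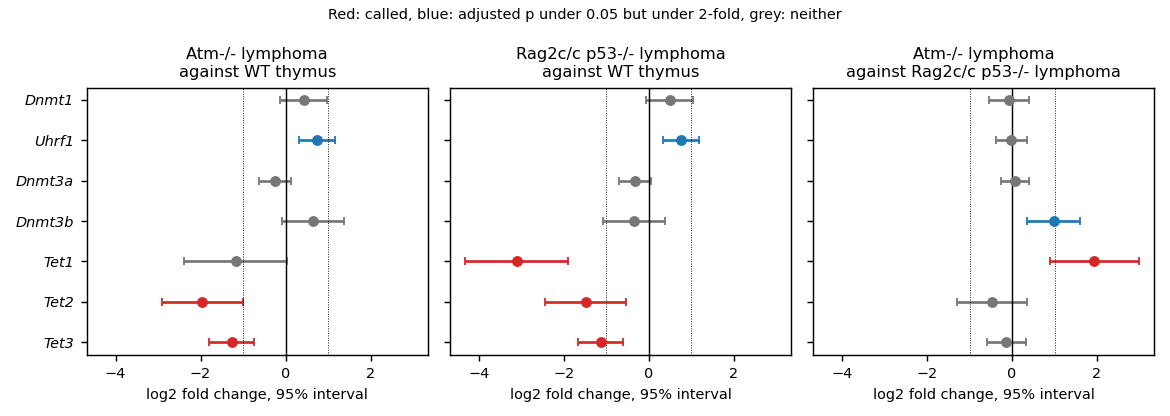
Log2 fold change with its 95% interval (limma) for the 7 genes in the 3 comparisons, with dotted lines at 2-fold. The 3 Tet genes lie left of 0 in both comparisons with thymus, Tet1 at -3.11 in Rag2c/c p53-/- lymphomas, and Tet1 and Dnmt3b lie right of 0 in Atm-/- against Rag2c/c p53-/- lymphomas.

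Groups that do not overlap were frequent at these sample sizes. In Atm-/- lymphomas against thymus 4 of the 7 genes (Uhrf1 and the Tet genes) did not overlap, against 51.3% of all tested genes. In Rag2c/c p53-/- lymphomas Dnmt1 was added, 5 of 7 against 43.9%. Between the lymphoma groups 0 of 7 were separate, against 8.33%. The median log2 fold change over all tested genes was -0.02, -0.02 and 0.02 in the 3 comparisons.

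The shallowest library of each group often stood at an end of its range. WT replicate 2 had the lowest Dnmt3a, Dnmt3b, Tet1, Tet2 and Tet3 and the highest Dnmt1 and Uhrf1 of the 3 thymuses. Rag2c/c p53-/- replicate 2 had the lowest Dnmt1, Dnmt3a and Dnmt3b and the highest Uhrf1 of its group, and Atm-/- replicate 2 had the lowest Dnmt1, Dnmt3b, Tet1 and Uhrf1. With these 3 libraries left out together, the number of called genes among the 7 was again 2, 3 and 1.

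Levels of different genes were compared per kilobase of summed exon length. Uhrf1 and Dnmt1 were the highest in all groups (1744 ± 105 and 1384 ± 84.8 per kilobase in WT, mean ± SD), and their ranges did not overlap in any group. In WT thymus Dnmt3a (331 ± 25.5) and Tet3 (305 ± 47.1) came next with overlapping ranges, then Tet1 (104 ± 12.5) and Dnmt3b (91.5 ± 13.7), whose ranges also overlapped, and Tet2 was last (52.8 ± 14.3). The Atm-/- lymphomas had Dnmt3b (144 ± 31.7) beside Tet3 (128 ± 28.6), with overlapping ranges. Tet1 (51.7 ± 26.1) and Tet2 (15.2 ± 7.06) followed. In Rag2c/c p53-/- lymphomas Tet1 dropped from the fifth to the last place, at 14.7 ± 9.23 per kilobase beside Tet2 at 18.7 ± 4.12, and those ranges overlapped.

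Differences between genes within a library do not depend on how the library was scaled. They were taken on normalized counts without dividing by length, so they show shifts between groups and not which gene was the more abundant. Tet1 was below Tet3 by a log2 difference of -1.77 to -1.56 in thymus and -2.21 to -1.11 in Atm-/- lymphomas, but of -5.69 to -2.80 in Rag2c/c p53-/- lymphomas, where no library reached the range of the other groups. Tet2 relative to Tet3 was -2.78 to -2.41 in thymus and -3.17 to -2.68 in Rag2c/c p53-/- lymphomas. Its range in Atm-/- lymphomas was -4.48 to -2.70, with replicate 4 at the low end. Dnmt3b relative to Dnmt3a averaged -2.68 ± 0.44 (SD) in Atm-/- lymphomas, -3.58 ± 0.42 in Rag2c/c p53-/- lymphomas and -3.57 ± 0.14 in thymus. The difference of Dnmt1 and Uhrf1 was above 0 in every library but 2, Atm-/- replicate 2 (-0.63) and Rag2c/c p53-/- replicate 2 (-0.53), and it was 0.43 to 0.50 in thymus.

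**Figure D3:**
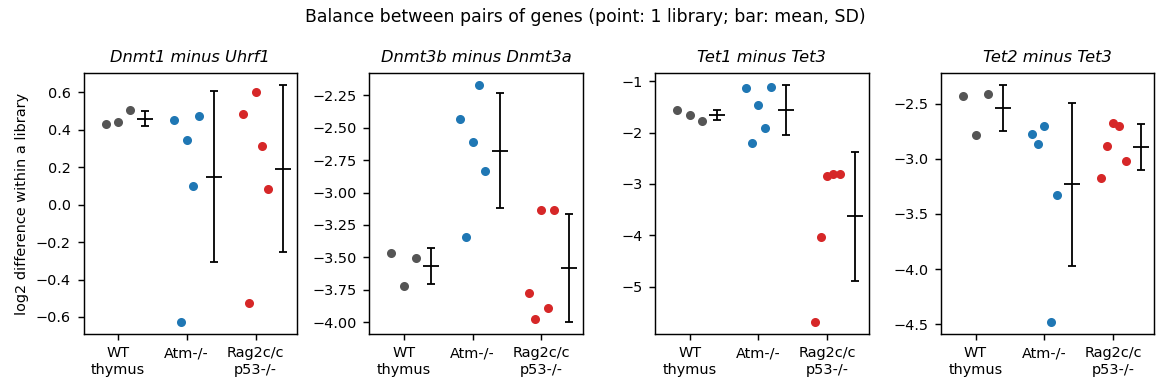
Log2 difference between 2 genes within each library for 4 pairs, with 1 point per library and the mean and SD of the group beside it. Tet1 minus Tet3 lies between -5.69 and -2.80 in Rag2c/c p53-/- lymphomas and above these values in the other groups, and Dnmt1 minus Uhrf1 is under 0 in 1 library of each lymphoma group.

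Dnmt1 and Uhrf1 are transcribed in dividing cells, so a list of 14 genes of S phase and dividing cells was read beside them. In Atm-/- lymphomas 2 of 14 were called higher, Gins2 (1.38 on the log2 scale), a subunit of the replicative helicase, and Tyms (1.16), thymidylate synthase. In Rag2c/c p53-/- lymphomas 2 of 14 were called higher, Cdc6 (1.29), which loads that helicase, and Gins2 (1.17). Of all tested genes 12.6% and 9.77% were called higher in these groups, so the counts of this list are near the share over all genes. The list's median log2 fold change was 0.71 and 0.66. Its summed value was 76295 to 89234 in thymus, 82367 to 147322 in Atm-/- and 103658 to 130171 in Rag2c/c p53-/- lymphomas. Atm-/- replicate 2, the lymphoma with the lowest Dnmt1, also had the lowest sum of all lymphomas at 82367. The part of dividing cells in the levels of Dnmt1 and Uhrf1 was not tested.

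**Figure D4:**
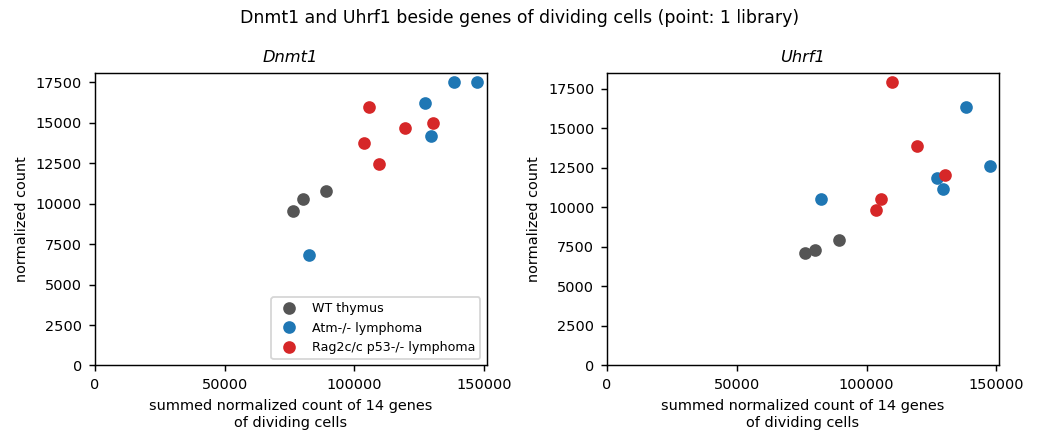
Normalized count of Dnmt1 (left) and Uhrf1 (right) against the summed normalized count of 14 genes of dividing cells, 1 point per library and both axes from 0. The 3 thymuses lie at low sums and low values of both genes, and Atm-/- replicate 2 lies beside them with a Dnmt1 of 6835 but a Uhrf1 of 10546.

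The partners of maintenance methylation were a list of 7 genes. In Atm-/- lymphomas 1 of 7 was called higher, the DNA ligase gene Lig1, which seals the lagging strand (7911, 4748, 7854, 9675 and 8620 against 3507, 3872 and 3596 in thymus, log2 1.05, adjusted p = 0.000881). In Rag2c/c p53-/- lymphomas 0 of 7 were called, and Lig1 was at 0.80 (adjusted p = 0.00615). Hells, a chromatin remodeler needed for methylation of repeats, was at 0.56 and 0.54, and its partner Cdca7 at 0.84 and 0.61, all with adjusted p of 0.0177 or less and under 2-fold. Usp7, a deubiquitinase that stabilizes DNMT1 and UHRF1, was at -0.51 (adjusted p = 0.0123) and -0.45 (adjusted p = 0.0279). Between the lymphoma groups 0 of 7 were called, where 3.51% of all tested genes were called higher and 4.33% lower. Against thymus 12.6% (Atm-/-) and 9.77% (Rag2c/c p53-/-) of all tested genes were called higher. The counts of this list are thus near the share over all genes.

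Of the list of 7 de novo and silencing partners, 5 were tested. In Rag2c/c p53-/- lymphomas 13.9% of all tested genes were called lower. Only Nsd1, whose product places the histone mark that recruits DNMT3A to intergenic DNA, was called, lower in Rag2c/c p53-/- lymphomas (4519, 2742, 4718, 3252 and 4447 against 7966, 7153 and 9338, log2 -1.07, adjusted p = 0.00127). Nsd1 was at -0.78 in Atm-/- lymphomas (adjusted p = 0.00701). Dnmt3l, the cofactor of de novo methylation in germ cells, was at 0 to 5 in all 13 libraries and was not tested.

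Among 7 genes of TET cofactors and 2-oxoglutarate supply, 6 were tested. Ogt, whose product binds TET proteins and attaches sugar to nuclear proteins, was called lower in both lymphoma groups. It was at 13508, 14570 and 14205 in thymus, at 5401, 8965, 4988, 5317 and 4694 in Atm-/- (log2 -1.31 ± 0.23, adjusted p = 0.000663) and at 5889, 3107, 5365, 3708 and 4816 in Rag2c/c p53-/- lymphomas (-1.66 ± 0.23, adjusted p = 0.000196). No lymphoma reached the thymus range. D2hgdh encodes the dehydrogenase that turns D-2-hydroxyglutarate, an inhibitor of TET enzymes, back into 2-oxoglutarate. It was at 589, 510 and 559 in thymus, at 122, 41, 81, 135 and 96 in Atm-/- lymphomas and at 328, 446, 466, 324 and 221 in Rag2c/c p53-/- lymphomas. The groups were ordered without overlap, and D2hgdh fell in Atm-/- lymphomas against thymus (-2.63 ± 0.36, adjusted p = 0.000106) and against Rag2c/c p53-/- lymphomas (-1.96 ± 0.31, adjusted p = 0.00146). Against thymus it was at -0.68 in Rag2c/c p53-/- lymphomas (adjusted p = 0.156). Idh2, which makes 2-oxoglutarate in mitochondria, was at 0.31 and 0.06 and passed neither test (adjusted p = 0.261 and 0.858).

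The 11 genes of demethylation by base excision moved in both directions. Tdg, the glycosylase that removes the bases TET enzymes have oxidized, was at 1986, 1913 and 2011 in thymus, at 1019, 384, 898, 861 and 1071 in Atm-/- lymphomas and at 2479, 2168, 2660, 2576 and 2923 in Rag2c/c p53-/- lymphomas. All Atm-/- values were below and all Rag2c/c p53-/- values above the thymus values. Tdg fell in Atm-/- lymphomas against thymus (-1.30 ± 0.27, adjusted p = 0.00168) and against Rag2c/c p53-/- lymphomas (-1.67 ± 0.23, adjusted p = 0.000485), and was at 0.37 in the latter against thymus (adjusted p = 0.289). Apex1 encodes the endonuclease that cuts the abasic site a glycosylase leaves. It was at 1271, 1241 and 1134 in thymus, at 5771, 10484, 7080, 11326 and 4305 in Atm-/- and at 1606, 3526, 2118, 2890 and 4513 in Rag2c/c p53-/- lymphomas. It rose in both (2.59 ± 0.34, adjusted p = 8.22e-05, and 1.18 ± 0.34, adjusted p = 0.0164) and more in Atm-/- lymphomas (1.41 ± 0.30, adjusted p = 0.00838), although the lymphoma groups overlapped.

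The stress-induced genes Gadd45a (-1.20) and Gadd45b (-1.44, adjusted p = 0.0469) completed the calls in Atm-/- lymphomas, 1 higher and 3 lower of 11, against 1 higher and 0 lower in Rag2c/c p53-/- lymphomas. Over all tested genes 12.6% were called higher and 17% lower in Atm-/-, and 9.77% and 13.9% in Rag2c/c p53-/- lymphomas. The median of the list was 0.07 in both. Between the lymphoma groups 1 was called higher, Apex1, and 1 lower, Tdg, against 3.51% and 4.33% of all tested genes.

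Of 7 methyl-CpG readers, which bind the mark or its context, 0 were called higher. In each lymphoma group 2 were called lower, against 17% (Atm-/-) and 13.9% (Rag2c/c p53-/-) of all tested genes. Both were Zbtb4 (-1.94 and -2.04) and Zbtb33 (-1.38 and -1.45), zinc finger repressors that bind methylated DNA. Zbtb4 was at 1275, 1374 and 1551 in thymus and between 186 and 638 in the 10 lymphomas. Of 8 genes of methyl donor supply, the folate and methionine steps that make S-adenosylmethionine, 3 were called higher in Atm-/- lymphomas, 2 were called higher in Rag2c/c p53-/- lymphomas, and 0 were called lower. Over all tested genes 12.6% and 9.77% were called higher in these groups. Shmt2, the mitochondrial serine hydroxymethyltransferase, was at 3219, 3957 and 3325 in thymus and 6625 to 16255 in lymphomas (1.89, adjusted p = 3.49e-05, and 1.52, adjusted p = 0.000267). Its cytosolic counterpart Shmt1 was at 1.42 and 1.53, and Mthfd1 was called in Atm-/- lymphomas (1.01). Between the lymphoma groups 0 genes of either list were called.

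**Figure D5:**
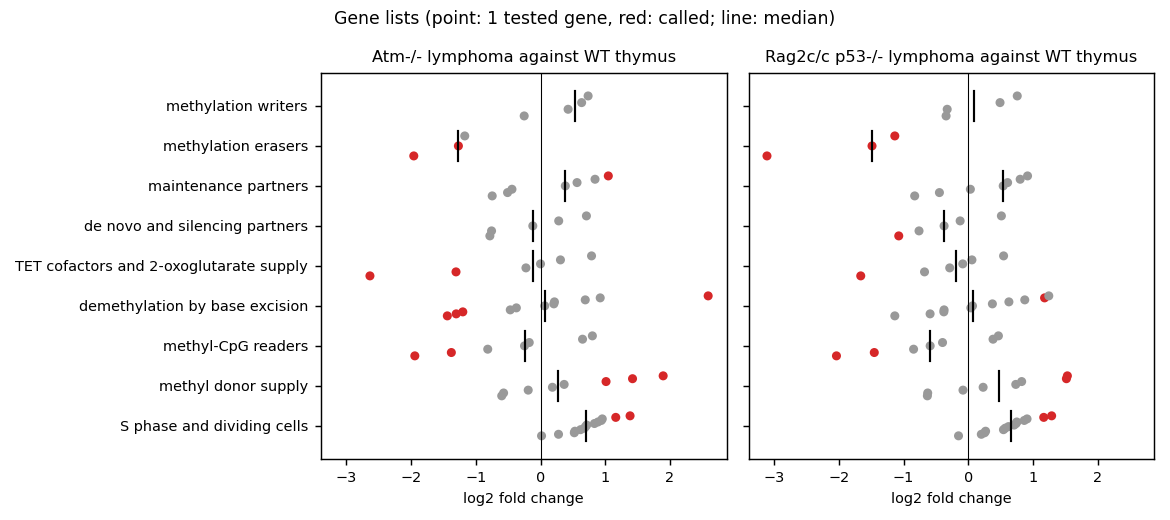
Log2 fold change of each tested gene in 9 lists, for Atm-/- (left) and Rag2c/c p53-/- lymphomas (right) against WT thymus, with called genes in red and the list median as a line. The eraser medians lie at -1.27 and -1.49, the dividing-cell medians at 0.71 and 0.66, and the other lists hold genes on both sides of 0.

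A list of 15 germline genes, chosen as genes known to be silenced by promoter methylation in somatic cells, was read as well. Of these, 14 were too low to test, and 11 of the 14 were at 3 or less in every library, with 4 at 0 throughout. The highest value among them was 10, reached by Dazl in WT replicate 2 (7 to 10 in thymus, 0 to 6 in lymphomas) and by Ddx4 in Rag2c/c p53-/- replicate 4 (0 to 3 in thymus). The tested gene was Brdt, a testis bromodomain gene, at 517, 396 and 542 in thymus and 80 to 263 in the 10 lymphomas (-1.80, adjusted p = 0.000753, and -1.77, adjusted p = 0.00117). Brdt was thus not silent in thymus, and methylation of its promoter was not measured.

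Markers of cell types and stages also differed between lymphomas and thymus. The shares over all tested genes were 12.6% higher and 17% lower in Atm-/-, and 9.77% and 13.9% in Rag2c/c p53-/- lymphomas. Of 7 genes of CD4+CD8+ double-positive thymocytes, 6 were called lower in Atm-/- lymphomas, and 3 were called lower in Rag2c/c p53-/- lymphomas, Rag1, Cd28 and Rag2, of which Rag2 is the gene truncated in these mice. Their summed value was 130226 to 193329 in thymus, 32468 to 63555 in Atm-/- and 57802 to 77570 in Rag2c/c p53-/- lymphomas. Thymic epithelium had 3 and 4 of 6 called lower (Psmb11 at 0 in all Atm-/- lymphomas, sums 725 to 1058, 189 to 609 and 287 to 1320 in the same order). Epcam was called in neither group and was at 221 to 283, 39 to 85 and 22 to 875. Ccl25 was at 260 to 296, 124 to 225 and 227 to 429. B cells had 4 and 5 of 6 called lower, with sums of 10193 to 14147, 2324 to 27368 and 1381 to 22361. Most of these sums was Ighm, which was called in neither group (8574 to 12750, 2145 to 27278 and 905 to 22279). Fibroblasts had 5 and 4 of 6 called higher, with sums of 204 to 218, 3783 to 18172 and 642 to 2336. Myeloid cells had 3 higher and 1 lower in Atm-/- and 1 higher and 1 lower in Rag2c/c p53-/- lymphomas of 6, with sums of 3486 to 3795, 6081 to 10195 and 3559 to 7434. Endothelium had 1 higher and 0 lower, and 1 higher and 2 lower, of 4 tested, and erythroid cells had 0 called of 5 tested. The part of these cells and stages in the Tet, Uhrf1 and partner values was not tested.

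Deviations of each library from its group mean show which of the 7 genes moved together within groups (Pearson r over 13 libraries, a description, since the libraries also share their depth). The highest were 0.69 for Tet2 and Tet3 (Spearman 0.78) and 0.66 for Tet1 and Dnmt3b (Spearman 0.66), which were 0.68 and 0.69 without the shallow Rag2c/c p53-/- replicate 2. Dnmt3a and Dnmt3b had an r of 0.65 (Spearman 0.60), which was 0.32 without that library. The r of Uhrf1 was -0.60 with Tet2 (Spearman -0.53, and -0.72 without that library). With Dnmt3a it was -0.62, but the Spearman value was -0.25 and the r without that library was -0.22. For Uhrf1 and Dnmt1 it was 0.25, and 0.52 and -0.10 without replicate 2 of the Rag2c/c p53-/- and of the Atm-/- group.

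Likeness was also measured over 10763 genes (those averaging 100 or more), and those most like each of the 7 by the same measure were chosen as the highest of many, so a high r is built in. They were Foxn2 (0.97), Msh3 (0.97) and Nkrf (0.96) for Dnmt3b, and Smpd4, Nup62 and Cenpu (0.95 to 0.96) for Dnmt1. For Uhrf1 they were Atf4, Gpaa1 and Eif4ebp1 (0.92 to 0.94), and for Dnmt3a they were Morc3, Hspa13 and Mtmr10 (each 0.91). The genes nearest to Tet1 were Afg3l2, Nt5c2 and Ccdc50 (0.93 to 0.96), and those nearest to Tet3 were Klhl17, Tmem106b and Pitpnc1 (0.95 to 0.97). For Tet2 they were Xlr4e-ps (0.98), a pseudogene of a multicopy family whose reads may be shared with near-identical copies, 4930539E08Rik (0.91) and Adarb1 (0.89).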

How the data were processed

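Values come from 1 table with a column per library. Per the labels and the methods, STAR 2.4.0g1 was used by the authors for alignment to GRCm38 (Ensembl release 78). They removed duplicates with Picard, kept uniquely mapped reads, counted them with HTSeq-count and scaled them with DESeq2 1.6.3. The methods cover the WT thymuses and were assumed for both lymphoma groups, and the strand setting of the counting was not given in the sources used here. The deposited values are such normalized counts rounded to whole numbers, treated as a score and not as counts, so no count test was run. The table also holds the authors' own group means, fold changes and p-values, which were not used. For 489 of 10763 genes with a mean of at least 100, the authors' overall mean lay within 1% of the mean of the 13 columns, so that mean was not taken over these libraries alone, and which libraries set the size factors is not known.

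The number of reads per library was estimated from the steps between low values (1 read was worth 0.51 to 3.38). In limma 3.58.1 (R 4.3.3), 1 model of the 3 groups was fitted with all 13 libraries on the log2(value + 1) scale, using trend and robust moderation, for the 15872 genes that reached 10 in 3 or more libraries. Fold changes are on that scale, which understates those of low genes. Called genes had an adjusted p under 0.05, changed by 1 or more on the log2 scale and averaged 10 or more in a group. The fit was tested on simulated data. The 7 genes and the gene lists were chosen with earlier results of these data known. Beside the 7 genes, up to 2 called genes with the highest and 2 with the lowest fold change were named per list, with Hells, Cdca7, Usp7, Tdg, Idh2 and Dnmt3l always, and for each of the 7 the 3 most similar genes. Gadd45a, Mthfd1, Themis, Psmb11, Epcam, Ccl25, Rag1, Cd28, Dazl and Ddx4 were named after their values were seen. Exon lengths are from GENCODE, and promoters are from RefSeq (GRCm38.p6), which matched all 7 genes. Alternatives were other pseudocounts, filters, scaling, moderation and thresholds, fits of 2 groups and leaving out libraries.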

Additional observations from a re-analysis of the deposited data

Results flagged for a closer look

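The change against WT thymus differed between the lymphoma groups for 2 of the 7 genes, by limma's direct contrast of the groups. For Tet1 the difference (Atm-/- minus Rag2c/c p53-/-) was 1.938 on the log2 scale, with 2 Atm-/- libraries (370 and 427) near the highest Rag2c/c p53-/- library (383). For Dnmt3b it was 0.978, with every Atm-/- library but replicate 2 above every Rag2c/c p53-/- library, but its adjusted p of 0.0461 rose above 0.05 in 10 of the 13 fits that left out 1 library. Strain and genotype cannot be told apart in this contrast. In 22 groups of values tested for a single far sample, 0 passed Dixon's limit, where chance gives about 1 in 20.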

How the results depend on the processing

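Leaving out each library in turn gave 3401 to 4902, 2505 to 3956 and 934 to 1315 called genes for Atm-/- against WT, Rag2c/c p53-/- against WT and Atm-/- against Rag2c/c p53-/- lymphomas, of 4687, 3750 and 1244 in the fit of all libraries. Among the 7 genes it gave 2 to 3, 2 to 3 and 0 to 2. The last count was 0 without Atm-/- replicate 1 or 5 and 2 without Atm-/- replicate 2 or Rag2c/c p53-/- replicate 3 or 5, and it was 0 with only these 2 groups in the fit. With no fold threshold the counts over all genes were 7027, 5884 and 1811, and among the 7 genes 3, 4 and 2, since Uhrf1 and Dnmt3b then counted. Fits of the 2 groups compared called 832 genes between the lymphoma groups, and a filter at 50 called 936. Differences near 0 between the lymphoma groups changed sign. Dnmt1 ranged from -0.153 to 0.187 as libraries were left out and was above 0 only without Atm-/- replicate 2. Dnmt3a ranged from -0.056 to 0.160 and was below 0 only without Rag2c/c p53-/- replicate 2. Uhrf1 ranged from -0.123 to 0.108 and was above 0 (0.036, 0.016, 0.108 and 0.015) without Atm-/- replicates 2 and 3 and Rag2c/c p53-/- replicates 2 and 5. With the 3 shallowest libraries left out together, an alternative chosen after seeing the data, these genes were at 0.137, -0.066 and 0.165. Of 483 recomputed fold changes of the 7 genes, 460 kept their direction and were called or not called as before. The adjusted p alone crossed 0.05 for Dnmt1 against thymus in both lymphoma groups without Atm-/- replicate 2 or without the 3 shallowest libraries (0.72, adjusted p = 0.00153, and 0.58, adjusted p = 0.00628), for Dnmt1 in Rag2c/c p53-/- (adjusted p = 0.0202) and Dnmt3b in Atm-/- lymphomas (adjusted p = 0.0411) with only thymus beside them in the fit, and for Dnmt3b between the lymphoma groups as given above. For Uhrf1 against thymus it stayed under 0.05 in all 23 alternatives in both groups. For differences within a library, leaving out 1 library cannot move a group mean by the SD between replicates. Such moves were therefore no test of those differences. The mean of Tet1 minus Tet3 in Rag2c/c p53-/- lymphomas ranged from -3.84 to -3.12 as libraries were left out. The cause of these changes was not tested. No paired analysis was possible because the labels give the groups no shared replicate numbers. At the lowest depths Tet1, Tet2 and Dnmt3b rested on 36, 38 and 57 estimated reads in a library, which limits those values.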
